A study of Mus musculus with 12 samples.

Results

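The comparison asked whether the loss of Trim71 and the overexpression of Tnrc6a changed each RNA independently of each other in mouse embryonic stem cells. It used all 12 of the 12 libraries of the series, 3 in each of 4 groups, and 20486 of the 20529 genes in the count table, those that passed a filter on low counts. For each gene, the effect of Trim71 loss in Tnrc6a-overexpressing cells (Trim71-/- over control) was set against the same effect in cells with Cas9 alone. The difference of these log2 fold changes is called the departure from additivity here. A departure of 0 means that the effects add on the log2 scale, which is to say that they multiply on the scale of the levels. A gene is called higher where the level in Tnrc6a Trim71-/- cells lay above that product, and lower where it lay below it, at an adjusted p under 0.05 in a two-sided edgeR test.

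All cells were embryonic stem cells of the 129S6/SvEvTac strain that carry the reporter GFP_5xT71BS and stable FLAG-Cas9, grown on gelatin in medium with serum and LIF. The Cas9 control group had this background only. The Cas9 Trim71-/- group was labelled as lacking Trim71, the Tnrc6a control group as overexpressing Tnrc6a, and the Tnrc6a Trim71-/- group as both. Replicates were wells of a 24-well dish, and the labels name no separate clones or days, so p-values measure the spread between wells, and a property of the cell line behind a group cannot be told apart from its genotype. The group of a library comes from its title and its overexpression tag. For 9 libraries, a comment on the RNA used as input names other cells: HA-AVI-Tnrc6a for Cas9 Trim71-/-, HA-AVI-Tnrc6a with Ago2-/- for Tnrc6a control, and HA-AVI-Tnrc6a with Upf1-/- for Tnrc6a Trim71-/-.

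Trim71 (LIN41) belongs to the TRIM-NHL proteins, is active in early embryos and binds mRNAs that it represses. Tnrc6a (GW182) is the scaffold protein that Argonaute proteins use to recruit the deadenylation machinery to microRNA targets. By its title, the series asks whether distinct RNA-silencing pathways meet on Tnrc6 proteins. If each change multiplied the level of an mRNA by a fixed factor whatever the other did, their effects on its log2 level would add. A departure does not by itself tell separate routes from a shared one, which was not tested.

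Total counts ran from 20758151 to 31552915 per library. Levels are given as CPM, the counts of a gene normalised to the library total, with totals scaled by the trimmed mean of M values (TMM). The TMM factors were 0.934 to 0.953 in the 6 Cas9 libraries and 1.04 to 1.08 in the 6 Tnrc6a libraries, and the first principal component held 69.1% of the variance. The targeted genes themselves showed no departure that passed the test. Tnrc6a RNA stood at 132 ± 1.31 CPM in Cas9 control, 145 ± 9.79 in Cas9 Trim71-/-, 3317 ± 119.6 in Tnrc6a control and 3622 ± 126 in Tnrc6a Trim71-/- (SD, n = 3; log2 departure -0.00, SE 0.055, adjusted p = 0.983), and its rises in both genotypes differed by less than that error. Trim71 RNA stood at 306 ± 14.2 CPM in Cas9 control, 275 ± 14.2 in Cas9 Trim71-/-, 264 ± 11.9 in Tnrc6a control and 240.4 ± 9.13 in Tnrc6a Trim71-/- (log2 departure 0.02, SE 0.059, adjusted p = 0.91), so RNA level does not check the knockout. Ago2 and Upf1 showed departures of 0.06 (SE 0.14, adjusted p = 0.876) and 0.04 (SE 0.057, adjusted p = 0.781). The 10 stem cell markers listed, such as Pou5f1 and Sox2, summed to 6291 to 6386 CPM in Cas9 control, 6820.1 to 6953 in Cas9 Trim71-/-, 3604 to 3669.6 in Tnrc6a control and 4794 to 4879.5 in Tnrc6a Trim71-/-. The 12 fibroblast markers listed summed to 231 to 242 CPM in Cas9 control, 222 to 233 in Cas9 Trim71-/-, 183 to 188 in Tnrc6a control and 150.3 to 157 in Tnrc6a Trim71-/-, most of it from Vim, and Col3a1, Dcn, Lum and Postn were not among the genes analysed.

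Of the 20486 genes, 1419 departed from additivity (6.93%), 958 of them higher (4.68%) and 461 lower (2.25%). The share called rose with level, from 0.88% of genes under 1 CPM to 8.33% from 5 to 50 CPM and 12% above 50. Lists below are set beside all genes without matching for level. At an unadjusted p under 0.05 there were 3963. Most departures were small: the median size among called genes was 0.40 on the log2 scale (quartiles 0.28 and 0.68), 540 genes reached 0.5, 179 reached 1 and 55 reached 2. The split between higher and lower calls moved with the scaling of the libraries. It was 768 higher and 613 lower with relative log expression factors and 710 and 571 with DESeq2, while the median departure of all genes moved from 0.021 to -0.005 in both. The split was also nearly even without Tnrc6a control replicate 1 (548 and 511), without Tnrc6a control replicate 2 (543 and 519) and without Tnrc6a Trim71-/- replicate 2 (584 and 521). At 0.5 or more, 358 were higher and 182 lower, against 313 and 206 with relative log expression factors. All 1419 genes kept their sign under every setting in which they were tested, and 659 stayed called whichever library was left out. Exons of 442 called genes overlap another gene. Whether counting used strand is not given in the sources used here, so their reads may be shared. Not all of these genes are pointed out below, and Gata6, Cdkn1c, Stat3, Axin2 and Psmb9 are among those that are not.

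**Figure D1:**
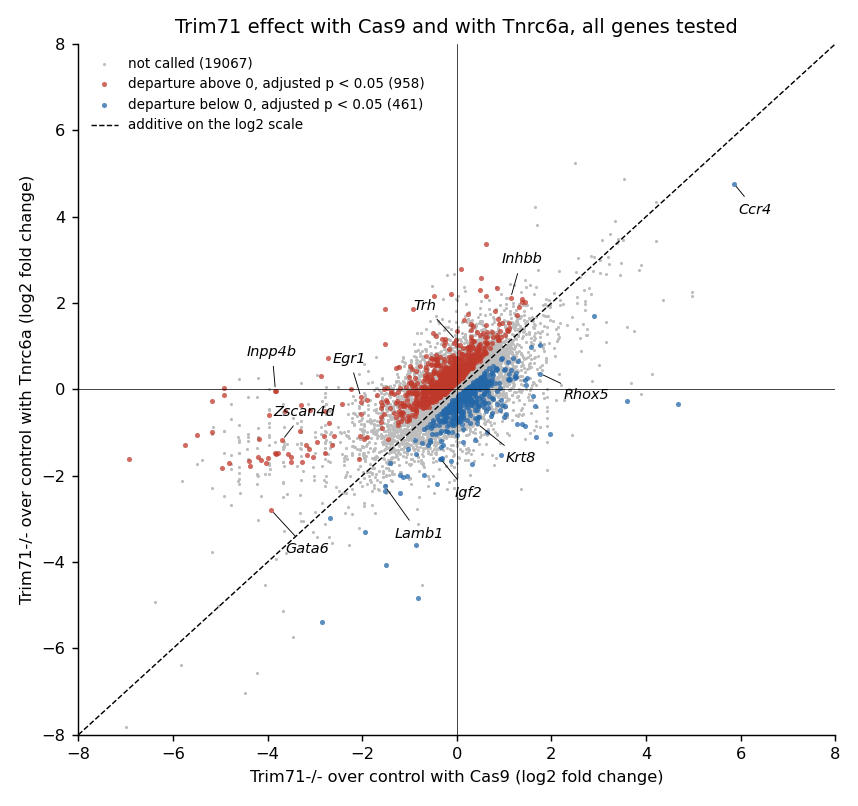
Log2 fold change of Trim71-/- over control with Cas9 (x axis) against that with Tnrc6a (y axis), for genes tested; 1 gene lies outside the axes. Points on the dashed line are additive, red points are the 958 genes called higher and blue points the 461 called lower; most lie close to the line, and a group at the left, with Zscan4d, lies far above it.

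The pattern behind the calls differed between genes. In 417 of the 1419, the Trim71 effect passed its own test with Cas9 only, 284 called higher and 133 lower, and in 419 with Tnrc6a only, 266 higher and 153 lower. In 451 it had the same sign in both settings, larger with Cas9 in 219 and larger with Tnrc6a in 232. It passed the test in both settings with opposite signs in 124, of which 92 fell with Cas9 and rose with Tnrc6a and 32 did the reverse. The remaining 8 genes passed neither single test. Over all genes, the Trim71 effect passed the test for 36.1% with Cas9 and for 39.1% with Tnrc6a. Read the other way, the same departures are differences between the Tnrc6a effects of the genotypes: of the 958 genes called higher, 307 fell with Tnrc6a in both genotypes, 235 rose in both and 56 fell in control and rose in Trim71-/- cells. Over all genes, the Tnrc6a effect passed the test for 63.5% in control cells (30.4% higher) and for 62.9% in Trim71-/- cells.

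Genes of the 2-cell-like state were called higher and never lower. This is a rare, transient state of stem cell cultures in which genes of the 2-cell embryo, such as the Zscan4 cluster, are switched on. Of 33 genes on this list, 31 were tested, and 11 were called higher and 0 lower (35.5% against 6.93% of all genes), with a median departure of 1.00, or 0.91 with groups under 3 counts set to 3. The Zscan4 genes are copies clustered on chromosome 7, and windows just before the start of a pair of them are shown here. The windows do not compare the transcribed sequences. Copies of a gene may share reads, which was not tested, and their calls may then not be independent. The windows end before the RefSeq start (GRCm38.p6), which for Zscan4d lies inside the GENCODE gene model, with Zscan4c at chr7:11005495-11005744 on the plus strand and Zscan4d at chr7:11166149-11166398 on the minus strand, and 232 of the 250 bases are identical once aligned.
Zscan4c: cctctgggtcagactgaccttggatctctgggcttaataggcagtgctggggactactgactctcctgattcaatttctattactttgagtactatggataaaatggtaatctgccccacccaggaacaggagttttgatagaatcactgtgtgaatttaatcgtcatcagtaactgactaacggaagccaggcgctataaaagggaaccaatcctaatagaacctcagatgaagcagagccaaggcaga
Zscan4d: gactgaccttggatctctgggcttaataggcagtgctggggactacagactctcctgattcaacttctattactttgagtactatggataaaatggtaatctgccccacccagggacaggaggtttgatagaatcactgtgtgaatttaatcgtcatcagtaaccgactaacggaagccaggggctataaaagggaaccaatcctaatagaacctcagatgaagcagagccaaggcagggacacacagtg

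Zscan4d (chromosome 7, 11161374 to 11166159, minus strand, GRCm38), a zinc finger and SCAN protein tied to telomere maintenance, stood at 5.19, 5.87 and 5.06 CPM in the Cas9 control libraries, 0.57, 0.414 and 0.184 in Cas9 Trim71-/-, 125, 128 and 122 in Tnrc6a control and 55.9, 56.3 and 53.5 in Tnrc6a Trim71-/-. The groups did not overlap: Tnrc6a raised it in both genotypes, and Trim71 loss lowered it in both, but by far less where Tnrc6a was high. From the other groups 9.05 CPM would be expected in Tnrc6a Trim71-/- cells, and the observed level was 6.1 times that (log2 departure 2.51, SE 0.21, adjusted p = 1.43e-11). Zscan4c, Zscan4f, Zscan4e, Zscan4a and Zscan4b departed by 2.32, 2.08, 1.94, 1.65 and 1.48, and all 6 kept the call with each library left out. The pseudogenes Zscan4-ps1, Zscan4-ps2 and Zscan4-ps3, named after their values were seen, departed by 2.41, 2.36 and 2.31, and their reads may be those of the genes. The Trim71 effect on Zscan4c was -3.82 with Cas9 and -1.50 with Tnrc6a. The deubiquitinase genes Usp17ld and Usp17le departed by 1.75 and 1.30, with the call lost without 7 and 3 of the 12 libraries. Ddit4l, an inhibitor of mTOR signalling, differed in shape: it stood at 10.8, 11.1 and 10.5 CPM with Cas9 in control cells, 10.4, 9.55 and 11.2 with Cas9 in Trim71-/- cells, 21.6, 23.9 and 22.6 with Tnrc6a in control cells and 29.5, 31.3 and 31.9 with Tnrc6a in Trim71-/- cells. Its Cas9 libraries of both genotypes overlapped, and with Tnrc6a the Trim71-/- libraries were higher (log2 departure 0.50, SE 0.11, adjusted p = 0.00274). Members with few counts were not called, such as Zfp352 (log2 departure 1.06, SE 0.65, adjusted p = 0.39), Tcstv3 (log2 departure 1.22, SE 0.64, adjusted p = 0.296) and Duxf3 (log2 departure 1.32, SE 1.03, adjusted p = 0.534). In bulk RNA, fewer cells in a state and less RNA per cell cannot be told apart. The 19 listed repressors of the state had 1 call higher (Max, 0.21) and 2 lower (Lin28a, -0.22, and Dppa2, -0.22), with a median of -0.02. Together these calls were 15.8% of the list, against 6.93% of all genes. The call of Lin28a was lost without Tnrc6a Trim71-/- replicate 3, that of Dppa2 without Cas9 Trim71-/- replicate 2 or Tnrc6a Trim71-/- replicate 1, and that of Max without 8 of the 12 libraries.

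A few genes called higher were almost silent in Cas9 Trim71-/- cells, so their fitted departures have no firm size. Inpp4b, a phosphoinositide phosphatase, had 18 counts over the Cas9 control group and 1 over Cas9 Trim71-/-, a ratio of 0.0526 with a 95% interval of 0.00126 to 0.333 (counting error only). With Tnrc6a it had 253 and 231 counts, a ratio of 0.986 (0.822 to 1.18). The intervals do not overlap, which is no separate support, since Inpp4b was chosen for its departure in these same counts. Spopfm1 went from 23 counts to 1 with Cas9 (ratio 0.0412, 0.0010 to 0.254) and from 574 to 239 with Tnrc6a (0.45, 0.385 to 0.524). Dcc, the netrin receptor, went from 22 to 2 (0.0861, 0.00981 to 0.35) and from 722 to 342 (0.512, 0.449 to 0.583). Ankrd22 had 18 and 0 counts with Cas9, a ratio of 0 (0 to 0.215), or 6.34-fold lower with a floor of 3 counts over the group. With Tnrc6a it had 397 and 149, a ratio of 0.405 (0.334 to 0.491). In all 4 the ratio was lower with Cas9 than with Tnrc6a, which follows from their choice as genes with the largest upward departures. The calls of Ankrd22, Spopfm1 and Dcc were lost without 4, 5 and 11 of the 12 libraries, and that of Inpp4b was kept without each. Exons of Ankrd22 overlap Lipm. Ccser1 and Trim43a, chosen in the same way, had the same order. Trim71 effects were -2.78 with Cas9 and -0.49 with Tnrc6a for Ccser1. For Trim43a they were -2.70 with Cas9 and -0.79 with Tnrc6a. The oocyte gene Nlrp4a rose without Trim71 with Tnrc6a (2.58), while its effect with Cas9 did not pass the test (log2 departure 2.07, SE 0.40, adjusted p = 0.000411).

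Most of the 12 largest downward departures were in genes with few counts, at a mean of 1 to 2 CPM. Rhox5, Lrp2, Sox7 and Bmp8b, described below, had more. Pramel7, a gene of the naive inner cell mass, departed by -1.56 (SE 0.40, adjusted p = 0.0107) and kept its call without each library. Trim71 effects were 0.38 with Cas9 and -1.18 with Tnrc6a, the first not passing its test. Adamts3, a procollagen protease, departed by -1.79, Nanos3, a germ cell gene, by -1.40 and Cavin3, a caveola gene, by -1.40. The histone gene H2bc27 departed by -1.35 and Tincr, annotated as protein-coding, by -1.31. These calls, in the order given, were lost without 3, 5, 7, 3 and 6 of the 12 libraries. Another Pramel gene, Pramel12, departed the other way (log2 departure 0.46, SE 0.09, adjusted p = 0.000464).

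**Figure D2:**
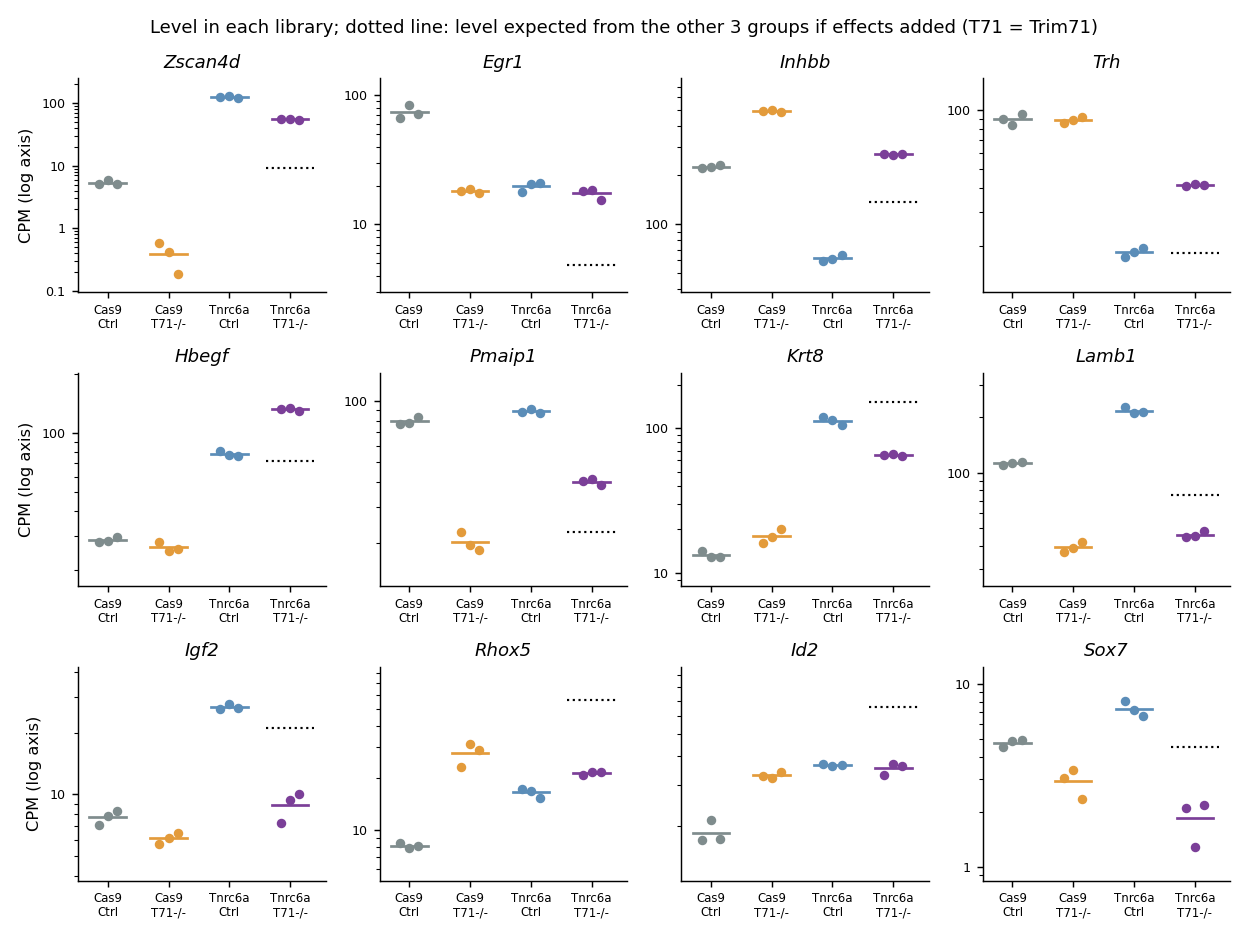
CPM in each library (log axes) for 12 genes in the 4 groups, with horizontal lines at the group means and a dotted line at the level expected in Tnrc6a Trim71-/- cells if effects added. In the first 6 genes the Tnrc6a Trim71-/- libraries lie above the dotted line (Zscan4d about 55 against 9.05 CPM, Egr1 about 17 against 4.84), and in the last 6 below it (Krt8 about 65 against 152).

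Egr1 had the largest upward departure of the genes named here with at least 15 CPM in every library. It encodes an immediate early transcription factor that ERK signalling switches on within minutes, on chromosome 18. It stood at 66.6, 83.5 and 71.5 CPM in the Cas9 control libraries, 18.1, 18.7 and 17.5 in Cas9 Trim71-/-, 17.7, 20.6 and 21 in Tnrc6a control and 18.3, 18.6 and 15.3 in Tnrc6a Trim71-/-. The Cas9 control libraries were high, and the other 9 libraries were low and overlapped each other. Either change alone took Egr1 down by a like amount, and both together took it no further, to 3.59 times the 4.84 CPM expected (log2 departure 1.84, SE 0.12, adjusted p = 9.58e-13). The Trim71 effect was -2.03 with Cas9 and -0.18 with Tnrc6a, the latter not passing its test.

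Genes of FGF and ERK signalling, the pathway that moves stem cells out of the naive state, were called higher more often than all genes. Of 30 tested, 14 were called higher and 0 lower (46.7%, against 4.68% higher of all genes), with a median of 0.35 against 0.02 for all genes. The count fell to 9 without Tnrc6a control replicate 2 and was 10 with DESeq2. Among ligands, Fgf4, the main FGF of stem cells, stood at 170.5, 163 and 165 CPM in the Cas9 control libraries, 227, 219.9 and 222 in Cas9 Trim71-/-, 100.1, 95.7 and 105 in Tnrc6a control and 176, 182 and 185 in Tnrc6a Trim71-/-. Trim71 loss raised it in both settings, more with Tnrc6a, and no groups overlapped (log2 departure 0.43, SE 0.056, adjusted p = 5.51e-07). Exons of Fgf15, Junb, Fosl1 and Spry1 overlap other genes. Fgf17 and Fgf15 departed by 0.78 (SE 0.15, adjusted p = 0.000464) and 1.26 (SE 0.24, adjusted p = 0.000411). Fgf15 is a case of opposite effects, -0.55 with Cas9 and 0.72 with Tnrc6a. The receptors Fgfr1, Fgfr2, Fgfr3 and Fgfr4 departed by 0.07, -0.04, 0.32 and -0.08, and none was called.

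Feedback inhibitors of ERK signalling differed. Dusp9, an ERK phosphatase outside the list, was called lower (-0.53). Spry4 stood at 216, 229 and 233 CPM in the Cas9 control libraries, 210.5, 196 and 209 in Cas9 Trim71-/-, 106, 107 and 109 in Tnrc6a control and 143, 139.5 and 147 in Tnrc6a Trim71-/-. No groups overlapped: Trim71 loss lowered it slightly with Cas9 and raised it with Tnrc6a (log2 departure 0.56, SE 0.057, adjusted p = 1.65e-09). Spred1 had Trim71 effects of -0.05 with Cas9 and 0.33 with Tnrc6a, the first not passing its test (log2 departure 0.39, SE 0.069, adjusted p = 0.000135). Spry1 and Dusp4 departed by 0.44 and 0.38, with the call lost without 7 and 9 of the 12 libraries, whereas Spry2 (log2 departure 0.09, SE 0.064, adjusted p = 0.47) and Dusp6 (log2 departure 0.15, SE 0.063, adjusted p = 0.149) were not called. Of the immediate early and AP-1 genes, Fosl1 departed by 1.23 (SE 0.26, adjusted p = 0.00159) and Junb by 0.42 (SE 0.086, adjusted p = 0.000965), while Fos and Myc departed by 0.46 (SE 0.19, adjusted p = 0.15) and 0.02 (SE 0.079, adjusted p = 0.937) and were not called. The ERK-induced transcription factor Etv5 departed by 0.21, lost without 5 of the 12 libraries, and Etv4 by 0.02 without a call. The growth factor gene Hbegf, a ligand of the EGF receptor family outside the list, stood at 27.8, 28.1 and 29.6 CPM with Cas9 in control cells, 27.9, 25.2 and 25.6 with Cas9 in Trim71-/- cells, 80.9, 77 and 76.2 with Tnrc6a in control cells and 133, 133 and 129 with Tnrc6a in Trim71-/- cells. All 3 Tnrc6a Trim71-/- libraries lay above all others (log2 departure 0.87, SE 0.073, adjusted p = 7.4e-12). Arc, another immediate early gene, stood at 30.2, 30.6 and 33.8 CPM in the Cas9 control libraries, 26.5, 30.8 and 26.7 in Cas9 Trim71-/-, 31, 30.2 and 29 in Tnrc6a control and 51.6, 50.3 and 49.9 in Tnrc6a Trim71-/-. The Tnrc6a Trim71-/- libraries lay above the other 9, which overlapped each other (log2 departure 0.93, SE 0.089, adjusted p = 3.41e-10).

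Of the TGF-beta family, Nodal pathway genes were among those called higher and the Id genes among those called lower. This family includes Nodal and activin, which act through Smad2 and Smad3, and the bone morphogenetic proteins (BMPs), whose direct targets are the Id genes. Of 30 genes tested, 7 were called higher (23.3%) and 4 lower (13.3%), against 4.68% and 2.25% of all genes. The 7 higher were Inhbb, Nodal, its co-receptor Tdgf1, the Nodal inhibitors Lefty1 and Lefty2, the inhibitory Smad7, and Skil. The count fell to 4 without Tnrc6a control replicate 1, and 4 of the 7 (Inhbb, Lefty1, Lefty2 and Smad7) lie on chromosomes 1 and 18, whose genes departed slightly upwards as a whole. Inhbb (chromosome 1, 119415465 to 119422248, minus strand), which encodes the beta-B subunit of activin and inhibin, had the smallest p of all genes. It stood at 221, 223 and 229.8 CPM in the Cas9 control libraries, 495, 504 and 486 in Cas9 Trim71-/-, 59.8, 61.5 and 64.5 in Tnrc6a control and 269, 266 and 271 in Tnrc6a Trim71-/-. No groups overlapped: Trim71 loss raised it in both settings, 1.14 with Cas9 and 2.12 with Tnrc6a on the log2 scale. The observed level was 1.97 times the 136 CPM expected (log2 departure 0.98, SE 0.053, adjusted p = 1.8e-17). Nodal stood at 63.7 ± 1.02 CPM in Cas9 control, 39.2 ± 1.36 in Cas9 Trim71-/-, 95.3 ± 4.09 in Tnrc6a control and 77.3 ± 2.05 in Tnrc6a Trim71-/- (SD, n = 3; log2 departure 0.40, SE 0.067, adjusted p = 6.22e-05), a smaller loss where Tnrc6a was high. Lefty1 and Lefty2 departed by 0.78 (SE 0.22, adjusted p = 0.0186) and 0.57 (SE 0.15, adjusted p = 0.0141), and these calls were lost without 5 and 3 of the 12 libraries.

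The genes Id1, Id2 and Id3, which encode dominant inhibitors of basic helix-loop-helix factors, were called lower. Id2 stood at 17.2, 21 and 17.5 CPM in the Cas9 control libraries, 32.9, 32.3 and 34.3 in Cas9 Trim71-/-, 37, 36.2 and 36.8 in Tnrc6a control and 33.3, 36.9 and 36.4 in Tnrc6a Trim71-/-. The Cas9 control libraries were low and the other 9 were all higher and close together, so that 65.5 CPM was expected and not reached (log2 departure -0.89, SE 0.094, adjusted p = 4.4e-09). Id1 stood at 77.4 ± 1.93 CPM in Cas9 control, 122 ± 9.47 in Cas9 Trim71-/-, 69.3 ± 4.74 in Tnrc6a control and 76.8 ± 3.77 in Tnrc6a Trim71-/- (log2 departure -0.51, SE 0.073, adjusted p = 5.99e-06). Id3 rose without Trim71 with Cas9 and fell with Tnrc6a, 0.52 with Cas9 and -0.15 with Tnrc6a (log2 departure -0.67, SE 0.085, adjusted p = 3.65e-07). Bmp4, the ligand, rose without Trim71 in both settings and departed by 0.17 (SE 0.082, adjusted p = 0.235), not called. Bmp8b was called lower at -1.30, a call lost without Cas9 Trim71-/- replicate 1 (adjusted p = 0.0557). Smad7 fell without Trim71 with Cas9 and rose with Tnrc6a, -0.26 with Cas9 and 0.21 with Tnrc6a (log2 departure 0.47, SE 0.062, adjusted p = 5.81e-07).

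The factors of naive pluripotency, the ground state that LIF sustains, were mostly called higher, by small amounts. Of 23 tested, 15 were called higher and 2 lower (73.9%, against 6.93% of all genes), with a median of 0.27. Esrrb, an orphan nuclear receptor that activates self-renewal genes, stood at 844, 847 and 828 CPM in the Cas9 control libraries, 1056, 1053 and 1029 in Cas9 Trim71-/-, 512, 506 and 533 in Tnrc6a control and 927, 901 and 903 in Tnrc6a Trim71-/-. Trim71 loss raised it in both settings and the groups were apart, but the rise was 0.32 with Cas9 and 0.82 with Tnrc6a (log2 departure 0.50, SE 0.047, adjusted p = 2.58e-10). Zfp42 (Rex1), Nanog and Klf4 had the same shape, with departures of 0.37 (SE 0.048, adjusted p = 4.51e-07), 0.27 (SE 0.048, adjusted p = 0.000116) and 0.26 (SE 0.057, adjusted p = 0.00187). Stat3, the effector of LIF, departed by 0.28 (SE 0.061, adjusted p = 0.00197), while its feedback inhibitor Socs3 departed by -0.20, lost without 5 of the 12 libraries. Klf5, Dppa4 and Tbx3 departed by 0.07, 0.08 and 0.11 and were not called. Of 12 core factors tested, 3 were called higher and 1 lower (25% and 8.33%, against 4.68% and 2.25% of all genes). Their median departure was -0.01. Among the higher, Sox2 stood at 461, 468 and 460.4 CPM with Cas9 in control cells, 516, 483 and 482 with Cas9 in Trim71-/- cells, 301, 311 and 289 with Tnrc6a in control cells and 409, 418 and 404 with Tnrc6a in Trim71-/- cells. Trim71 loss raised it slightly with Cas9 and more with Tnrc6a, and no groups overlapped (log2 departure 0.36, SE 0.051, adjusted p = 3.66e-06). Pou5f1 (Oct4) departed by 0.05 (SE 0.055, adjusted p = 0.686). The 10 stem cell markers include Esrrb, Zfp42, Nanog, Sox2 and Pou5f1, so their summed level is not independent of these genes. That sum was lowest in Tnrc6a control and partly back in Tnrc6a Trim71-/- cells. Whether the share of undifferentiated cells differed between groups was not tested.

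The de novo DNA methyltransferases departed in opposite directions. Dnmt3a stood at 204, 207 and 207 CPM in the Cas9 control libraries, 93.3, 103 and 85.7 in Cas9 Trim71-/-, 114, 117 and 118 in Tnrc6a control and 80.5, 79.1 and 79.2 in Tnrc6a Trim71-/-. Both changes lowered it and the groups did not overlap, but the loss without Trim71 was less with Tnrc6a (log2 departure 0.58, SE 0.065, adjusted p = 1.4e-08). Dnmt3b stood at 115, 119.6 and 112 CPM with Cas9 in control cells, 95.7, 96.3 and 93.2 with Cas9 in Trim71-/- cells, 117, 118 and 122 with Tnrc6a in control cells and 73, 71.1 and 73.4 with Tnrc6a in Trim71-/- cells. Here the Tnrc6a Trim71-/- libraries were the lowest, below the 97.9 CPM expected (log2 departure -0.43, SE 0.06, adjusted p = 1.25e-06). The exons of Dnmt3a overlap the antisense gene Dnmt3aos. Of 12 methyltransferase and Tet genes these were the only calls (16.7%, against 6.93% of all genes). Of 17 formative and primed genes, 6 were called higher and 1 lower (41.2%). This list marks the step from naive cells towards the epiblast. Its calls included Foxd3 (log2 departure 0.51, SE 0.067, adjusted p = 6.55e-07), a transcription factor of the epiblast.

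Targets of p53, the DNA damage and stress factor, were called higher in 16 of 25 and lower in 0 (64.0%, against 4.68% higher of all genes), with a median of 0.32. With relative log expression factors the count was 13. Pmaip1 (Noxa), a BH3-only cell death gene, stood at 77.1, 77.8 and 83.5 CPM in the Cas9 control libraries, 22.5, 19.5 and 18.5 in Cas9 Trim71-/-, 88.3, 90.7 and 87.3 in Tnrc6a control and 40.2, 41.2 and 38.5 in Tnrc6a Trim71-/-. Trim71 loss lowered it in both settings with no overlap, with log2 effects of -1.97 with Cas9 and -1.15 with Tnrc6a (log2 departure 0.82, SE 0.08, adjusted p = 5.71e-10). The p53 inhibitor Mdm2 stood at 184, 187 and 183 CPM with Cas9 in control cells, 154, 151 and 149 with Cas9 in Trim71-/- cells, 309.5, 326 and 323 with Tnrc6a in control cells and 321, 329 and 332 with Tnrc6a in Trim71-/- cells. Trim71 loss lowered it with Cas9, while the Tnrc6a libraries of both genotypes overlapped (log2 departure 0.32, SE 0.051, adjusted p = 3.06e-05). Ccng1 had Trim71 effects of -0.34 with Cas9 and 0.06 with Tnrc6a (log2 departure 0.40, SE 0.05, adjusted p = 2.51e-07). The cell cycle inhibitor Cdkn1a (p21), also reported as a TRIM71 target, was 32.8 ± 1.26 CPM in Cas9 control, 29.6 ± 2.000 in Cas9 Trim71-/-, 90.8 ± 2.58 in Tnrc6a control and 103 ± 4.56 in Tnrc6a Trim71-/- (SD, n = 3), lower without Trim71 with Cas9 and higher with Tnrc6a (log2 departure 0.32, SE 0.075, adjusted p = 0.00344). Plk2, Trp53inp1, Sesn2, Ei24 and Btg2 departed by 0.43, 0.46, 0.36, 0.41 and 0.33. Trp53 itself departed by 0.15 (SE 0.052, adjusted p = 0.0723), and Bax and Perp by 0.10 and 0.12, none called. The departures of this list were small next to those of the Zscan4 genes, and none passed a test for more than 1.5-fold.

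**Figure D3:**
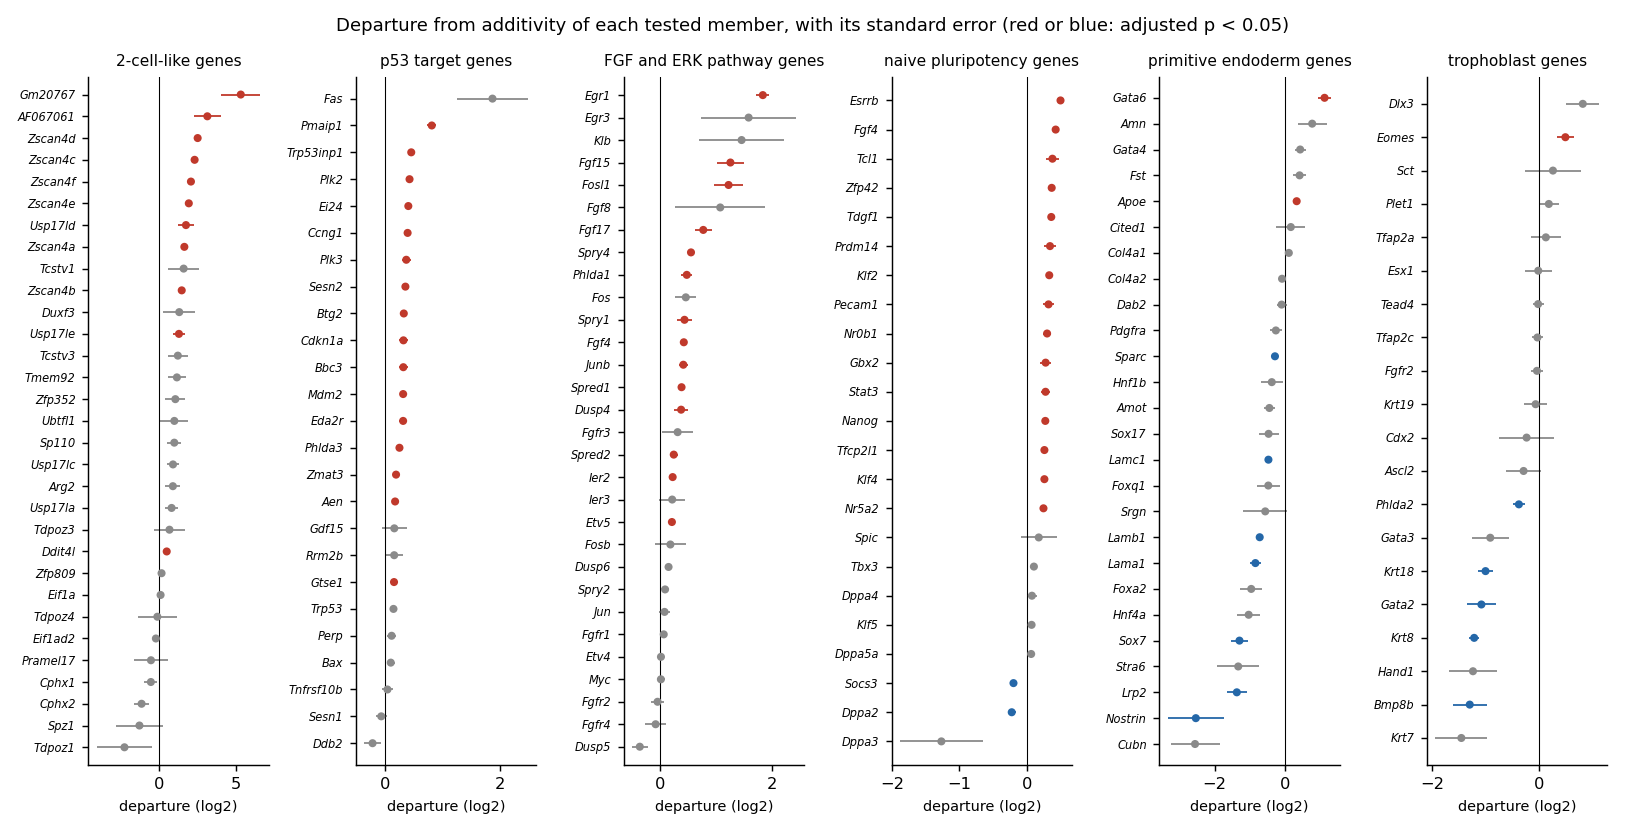
Departure from additivity (log2, x axes) of every tested member of 6 lists, as points with lines of 1 standard error. Red and blue members have adjusted p under 0.05: the 2-cell-like, p53, FGF and ERK, and naive lists hold red points on the right, while 7 of the 26 primitive endoderm genes and 5 of the 20 trophoblast genes are blue.

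Primitive endoderm genes, those of the yolk sac lineage that stem cell cultures form spontaneously, were called lower more often than higher. Of 28 listed, 26 were tested, 2 were called higher and 7 lower (34.6%, against 6.93% of all genes), with a median of -0.45. Their summed level was 1869 to 1954 CPM in Cas9 control, 1160.2 to 1203 in Cas9 Trim71-/-, 2668 to 2841 in Tnrc6a control and 1155 to 1220.2 in Tnrc6a Trim71-/-. The sum was highest in Tnrc6a control, and the sums of both Trim71-/- groups overlapped. The 7 called lower were Nostrin, Lrp2, Sox7 and 4 genes of basement membrane proteins, Lama1, Lamb1, Lamc1 and Sparc. Lamb1 (chromosome 12, 31265234 to 31329644, plus strand), the laminin beta-1 chain, stood at 110.1, 113 and 114 CPM in the Cas9 control libraries, 37, 38.8 and 42 in Cas9 Trim71-/-, 227, 209 and 214 in Tnrc6a control and 44.7, 45.3 and 48 in Tnrc6a Trim71-/-. The Tnrc6a control libraries were well above all others, and the Tnrc6a Trim71-/- libraries were little above Cas9 Trim71-/-, against 75.6 CPM expected (log2 departure -0.71, SE 0.067, adjusted p = 2.33e-10). Lama1, Lamc1 and Sparc departed by -0.84 (SE 0.15, adjusted p = 0.0128), -0.47 (SE 0.073, adjusted p = 0.00021) and -0.28 (SE 0.055, adjusted p = 0.00054). Collagen IV differed from laminin: Col4a1 stood at 171 ± 4.65 CPM in Cas9 control, 51.4 ± 3.1 in Cas9 Trim71-/-, 392.3 ± 26.8 in Tnrc6a control and 128 ± 2.2 in Tnrc6a Trim71-/- and departed by 0.12 (adjusted p = 0.322). The endocytic receptor Lrp2 (megalin) departed by -1.37 (SE 0.29, adjusted p = 0.0241) and its partner Cubn by -2.56 (SE 0.70, adjusted p = 0.0502), the first call lost without 6 of the 12 libraries. Nostrin, a trafficking adaptor with few counts, departed by -2.54, a call lost without 7.

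The transcription factors of the lineage did not move together. Gata6, which specifies primitive endoderm, stood at 13.8, 13.9 and 15.8 CPM in the Cas9 control libraries, 0.973, 1.16 and 0.691 in Cas9 Trim71-/-, 33.5, 38 and 34.4 in Tnrc6a control and 5.27, 5.15 and 4.85 in Tnrc6a Trim71-/-. Its groups did not overlap, and the observed level was 2.22 times that expected (log2 departure 1.14, SE 0.20, adjusted p = 0.000106). Gata4 departed by 0.44 (SE 0.16, adjusted p = 0.088), not called. Sox7 stood at 4.53, 4.86 and 4.95 CPM in the Cas9 control libraries, 3.05, 3.39 and 2.35 in Cas9 Trim71-/-, 8.07, 7.19 and 6.7 in Tnrc6a control and 2.09, 1.29 and 2.17 in Tnrc6a Trim71-/- and departed the other way (log2 departure -1.29, SE 0.23, adjusted p = 0.000172). Sox17 departed by -0.46 (SE 0.29, adjusted p = 0.405), Pdgfra by -0.25 (SE 0.18, adjusted p = 0.47) and Dab2 by -0.09 (SE 0.14, adjusted p = 0.8), none called. Apoe, the other gene called higher, departed by 0.34 (SE 0.06, adjusted p = 0.00012).

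Trophoblast genes, of the placental lineage, had 5 calls lower (25%) and 1 higher (5%) of 20 tested, against 2.25% and 4.68% of all genes. The lower count was 8 without Cas9 control replicate 1, and the higher count was 0 without 10 of the 12 libraries. The summed level was 126 to 133 CPM in Cas9 control, 129.5 to 131 in Cas9 Trim71-/-, 393 to 428 in Tnrc6a control and 273 to 282 in Tnrc6a Trim71-/-. The simple keratins Krt8 and Krt18 are partners in the filaments of early epithelia. Krt8 (chromosome 15, 101996698 to 102004482, minus strand) stood at 14.2, 12.8 and 12.9 CPM in the Cas9 control libraries, 16.1, 17.7 and 20.2 in Cas9 Trim71-/-, 118, 113 and 106 in Tnrc6a control and 65.2, 65.9 and 64.1 in Tnrc6a Trim71-/-. Trim71 loss raised it with Cas9 and lowered it with Tnrc6a, and no groups overlapped (log2 departure -1.21, SE 0.093, adjusted p = 9.58e-13). Exons of Krt8 overlap the gene Gm36026. Krt18 stood at 7.99, 6.43 and 7.88 CPM with Cas9 in control cells, 5.87, 5.54 and 6.55 with Cas9 in Trim71-/- cells, 108, 94 and 86 with Tnrc6a in control cells and 38.2, 39 and 37.4 with Tnrc6a in Trim71-/- cells (log2 departure -1.001, SE 0.13, adjusted p = 1.56e-06). With Cas9 its control and Trim71-/- libraries overlapped, and with Tnrc6a they lay far apart. Gata2 departed by -1.08 (SE 0.27, adjusted p = 0.00774), while Cdx2, Tead4 and Tfap2c, which specify the lineage, departed by -0.24, -0.02 and -0.03 and were not called. The gene of an actin-binding protein and an adhesion gene, both outside the list, departed in the same direction. Tpm1 (tropomyosin 1) stood at 57.2 ± 1.28 CPM in Cas9 control, 52.6 ± 2.21 in Cas9 Trim71-/-, 109.7 ± 4.31 in Tnrc6a control and 65.8 ± 3.76 in Tnrc6a Trim71-/- (log2 departure -0.62, SE 0.07, adjusted p = 2.25e-08), and the laminin receptor subunit Itga3 at 146 ± 3.32 CPM in Cas9 control, 155 ± 3.7 in Cas9 Trim71-/-, 112 ± 4.24 in Tnrc6a control and 85.6 ± 3.17 in Tnrc6a Trim71-/- (log2 departure -0.48, SE 0.059, adjusted p = 1.81e-07). Vim, the mesenchymal filament gene on the fibroblast list, departed by -0.31 (SE 0.057, adjusted p = 0.000191), and no other gene of that list was called.

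The smallest p-values among genes with a mean of at least 50 CPM went to Inhbb, Kbtbd11, Trh, Txnip and Ntn1 of those called higher and to Krt8, Lamb1, Dusp9, Tpm1 and Itga3 of those called lower. Kbtbd11, an adaptor gene of the kelch and BTB family, stood at 83.8, 81.7 and 83.5 CPM in the Cas9 control libraries, 148, 139.8 and 147 in Cas9 Trim71-/-, 57.2, 55.4 and 60.3 in Tnrc6a control and 200.2, 199.8 and 210.2 in Tnrc6a Trim71-/-. It rose without Trim71 in both settings without overlap, 0.80 with Cas9 and 1.82 with Tnrc6a (log2 departure 1.02, SE 0.06, adjusted p = 2.18e-16). Trh, which encodes thyrotropin-releasing hormone, stood at 90.3, 84.3 and 95.7 CPM with Cas9 in control cells, 85.7, 89.5 and 92.5 with Cas9 in Trim71-/- cells, 17.7, 18.8 and 19.7 with Tnrc6a in control cells and 40.8, 41.7 and 41.2 with Tnrc6a in Trim71-/- cells. Its 6 Cas9 libraries overlapped, whereas with Tnrc6a all Trim71-/- libraries lay above all control libraries (log2 departure 1.16, SE 0.077, adjusted p = 9.46e-15). Txnip, an inhibitor of thioredoxin and glucose uptake, stood at 228 ± 2.57 CPM in Cas9 control, 143 ± 1.69 in Cas9 Trim71-/-, 228 ± 13.1 in Tnrc6a control and 236 ± 4.8 in Tnrc6a Trim71-/- (SD, n = 3). Trim71 loss lowered it with Cas9, and its effect with Tnrc6a did not pass the test (log2 departure 0.72, SE 0.055, adjusted p = 9.58e-13). Exons of Kbtbd11 overlap Gm37844 and those of Txnip overlap Gm15441. Ntn1, the guidance cue netrin-1 and ligand of Dcc, departed by 0.87 (SE 0.069, adjusted p = 2.1e-12), and the kinase gene Sgk1 by 0.60 (SE 0.051, adjusted p = 1.43e-11). Dusp9 stood at 173 ± 3.12 CPM in Cas9 control, 158 ± 9.77 in Cas9 Trim71-/-, 189.7 ± 2.81 in Tnrc6a control and 120.3 ± 2.34 in Tnrc6a Trim71-/-, with a larger fall where Tnrc6a was high (log2 departure -0.53, SE 0.058, adjusted p = 1.21e-08). Rragd, a GTPase gene of mTOR signalling, fell without Trim71 with Cas9 and had no called effect with Tnrc6a, -0.92 with Cas9 and -0.09 with Tnrc6a (log2 departure 0.83, SE 0.09, adjusted p = 7.96e-09). The transcription factor gene Msc (musculin) rose without Trim71 with Tnrc6a and had no called effect with Cas9, 0.67 being its departure (adjusted p = 6.54e-08). Of the 8 genes with no single effect called, Fez2, Snx17, Cpt1c and Ptpre departed by -0.31, -0.25, 0.26 and 1.11, and these calls were lost without 8, 3, 10 and 7 of the 12 libraries. Jam2, a junctional adhesion gene, had Trim71 effects of opposite sign, -0.11 with Cas9 and 0.45 with Tnrc6a (log2 departure 0.56, SE 0.055, adjusted p = 5.78e-10).

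Imprinted genes, expressed from the allele of 1 parent, had 4 calls higher and 4 lower of 29 tested (27.6%, against 6.93% of all genes). The lower count was 2 without Tnrc6a control replicate 3. Igf2, a fetal growth factor, stood at 7.11, 7.84 and 8.27 CPM in the Cas9 control libraries, 5.74, 6.12 and 6.45 in Cas9 Trim71-/-, 26.3, 27.8 and 26.6 in Tnrc6a control and 7.25, 9.39 and 10.01 in Tnrc6a Trim71-/-. Tnrc6a raised it in control cells, and the Tnrc6a Trim71-/- libraries lay near the Cas9 levels against 21.2 CPM expected (log2 departure -1.25, SE 0.15, adjusted p = 6.92e-08). Exons of Igf2 overlap Igf2os. H19, its neighbour, departed by 0.72 (SE 0.48, adjusted p = 0.439), not called. Cdkn1c (p57), from the next domain on the same chromosome, rose without Trim71 with Cas9 and fell with Tnrc6a (log2 departure -0.80, SE 0.10, adjusted p = 3.53e-07). Grb10, an adaptor that restrains growth signals, was 444 ± 10.9 CPM in Cas9 control, 187 ± 10.1 in Cas9 Trim71-/-, 179 ± 9.87 in Tnrc6a control and 107 ± 1.24 in Tnrc6a Trim71-/- (log2 departure 0.50, SE 0.058, adjusted p = 6.47e-08), Impact departed by 0.47 (SE 0.064, adjusted p = 1.14e-06) and the long noncoding Rian by 0.37 (SE 0.058, adjusted p = 1.66e-05). Rhox5, an X-linked homeobox gene, stood at 8.41, 7.94 and 8.15 CPM in the Cas9 control libraries, 23.3, 31.5 and 28.8 in Cas9 Trim71-/-, 17.3, 16.9 and 15.4 in Tnrc6a control and 20.9, 21.5 and 21.6 in Tnrc6a Trim71-/-. Either change raised it, and with Tnrc6a the rise without Trim71 was 0.37 against 1.76 with Cas9 (log2 departure -1.39, SE 0.13, adjusted p = 7.42e-11).

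The Wnt pathway had 3 calls higher (10.3%) and 4 lower (13.8%) of 29 tested, against 4.68% and 2.25% of all genes. The direct targets Axin2 and Sp5 were called lower (-0.64 and -1.52, the latter lost without 3 of the 12 libraries), as were the receptor Fzd2 (-0.75) and Ccnd2 (-0.68). The secreted antagonists Sfrp1 (log2 departure 0.43, SE 0.058, adjusted p = 1.22e-06) and Notum (log2 departure 0.62, SE 0.13, adjusted p = 0.000802) and the receptor Fzd5 (log2 departure 0.38, SE 0.052, adjusted p = 1.24e-06) were called higher. Germ cell genes had 2 of each of 22 (9.09% higher and 9.09% lower). Ddx4, the germ cell helicase, departed by -0.31 (SE 0.075, adjusted p = 0.006) with a call kept without each library. The calls of Stra8 (0.45), Piwil4 (1.23) and Nanos3 were lost without 8, 9 and 5 of the 12 libraries. Of early neural genes, Sox1 departed by 0.90 (SE 0.21, adjusted p = 0.00594), lost without Tnrc6a control replicate 1, and Tubb3 by 0.19, lost without 10. The mesendoderm factor Eomes (0.49) was lost without 10.

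Since Tnrc6a is an effector of microRNAs, the departures were set beside microRNA seeds. The mature sequences are from RefSeq (GRCm38.p6), 5′ to 3′, with the seed (bases 2 to 8) in capitals. The first 4 are abundant in stem cells or, for let-7, in their descendants, and miR-206 is a muscle microRNA shown as a comparator.
mmu-let-7a-5p: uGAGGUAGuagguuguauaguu
mmu-miR-294-3p: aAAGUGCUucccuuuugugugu
mmu-miR-302b-3p: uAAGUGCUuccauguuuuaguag
mmu-miR-17-5p: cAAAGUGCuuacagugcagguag
mmu-miR-206-3p: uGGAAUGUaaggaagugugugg
A gene counted as matched where its longest annotated 3′ UTR held the reverse complement of the seed at least once on the sense strand, namely CTACCTC for let-7, AGCACTT for the shared seed of miR-294 and miR-302b, GCACTTT for miR-17 and ACATTCC for miR-206. The sites of the miR-290 and miR-17 families overlap. Of 15107 tested genes with a 3′ UTR, 5.76% were called higher and 2.73% lower, with a median departure of 0.02. For let-7 the values were 4.59%, 2.81% and 0.03 over 1744 genes, for the miR-290 and miR-302 seed 6.77%, 2.37% and 0.04 over 2614 genes, and for miR-17 7.53%, 2.35% and 0.04 over 2124 genes. The comparator miR-206 gave 7.02%, 2.79% and 0.04 over 1723 genes. Matched genes had longer 3′ UTRs, with medians of 2399 to 2651 bases against 1262 for all. The values of miR-17 and of the miR-290 and miR-302 seed were close to those of the comparator, and those of let-7 were lower for calls above additivity. No test was made of these differences.

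Of 26 reported targets of miR-290 and miR-302, 7 were called higher and 3 lower (38.5%, against 6.93% of all genes). The lower count was 1 without Cas9 control replicate 2, Cas9 Trim71-/- replicate 1 or Tnrc6a Trim71-/- replicate 3. The Hippo kinase gene Lats2 stood at 13.7, 14.5 and 14.3 CPM in the Cas9 control libraries, 6.98, 6.66 and 7.56 in Cas9 Trim71-/-, 28.4, 28.7 and 32.7 in Tnrc6a control and 23.1, 24 and 22.9 in Tnrc6a Trim71-/-. It fell without Trim71 in both settings, -1.01 with Cas9 and -0.36 with Tnrc6a (log2 departure 0.65, SE 0.12, adjusted p = 0.000164). The kinase gene Akt1 departed by -0.31 (SE 0.082, adjusted p = 0.0109). Of 25 let-7 targets, 1 was called higher and 3 lower (16%, against 6.93% of all genes). The higher one was Mycn (log2 departure 0.30, SE 0.068, adjusted p = 0.00264). Among the lower were Hmga2 (log2 departure -0.47, SE 0.099, adjusted p = 0.00112) and Igf2bp1 (log2 departure -0.26, SE 0.05, adjusted p = 0.000348). Both Hmga2 and Igf2bp1 fell without Trim71 only where Tnrc6a was high. Of 15 reported TRIM71 mRNA targets tested, 5 were called higher and 1 lower (40%, against 6.93% of all genes). They were Egr1, Inhbb, Stat3, Cdkn1a, Plxnb2 (0.23) and, lower, Ccne2 (-0.28, lost without 7 of the 12 libraries and with limma-voom). Egr1 and Inhbb lie on chromosomes 18 and 1. Mbnl1, Rbl1, Rbl2 and E2f7 departed by -0.28, -0.13, 0.12 and -0.13 without a call.

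In the small-RNA silencing machinery, 2 of 22 genes were called higher and 2 lower (18.2%, against 6.93% of all genes). The lower were Lin28a and Limd1 (-0.30), with the call lost without 1 and 9 of the 12 libraries. The paralog Tnrc6c stood at 102, 98 and 101 CPM in the Cas9 control libraries, 72.5, 79.4 and 76.8 in Cas9 Trim71-/-, 74.3, 73.6 and 79.2 in Tnrc6a control and 73.4, 69.8 and 74.2 in Tnrc6a Trim71-/-. Trim71 loss lowered it with Cas9, and the Tnrc6a libraries of both genotypes overlapped (log2 departure 0.34, SE 0.065, adjusted p = 0.000414). Tnrc6b departed by -0.28 (SE 0.10, adjusted p = 0.116), not called. Pabpc1, the poly(A)-binding protein that Tnrc6 proteins contact, departed by 0.25 (SE 0.05, adjusted p = 0.000908). Ago1, Dicer1, Drosha and Dgcr8 departed by 0.06, 0.01, 0.11 and -0.07 and were not called. Of 29 deadenylation and decapping factors, Dcp2, the catalytic decapping enzyme, was the only call (log2 departure 0.29, SE 0.057, adjusted p = 0.000502). Subunits of the CCR4-NOT complex that Tnrc6a recruits were near additive, such as Cnot1 at -0.12 and Cnot3 at -0.07. The chemokine receptor gene Ccr4, the neighbour of Trim71 on chromosome 9, stood at 0.999, 0.81 and 0.309 CPM in the Cas9 control libraries, 41.7, 39.9 and 40.5 in Cas9 Trim71-/-, 0.974, 0.899 and 0.796 in Tnrc6a control and 25.8, 22.7 and 24.4 in Tnrc6a Trim71-/-. All 6 control libraries were under 1 CPM, and Trim71-/- libraries were high, more with Cas9 than with Tnrc6a (log2 departure -1.09, SE 0.29, adjusted p = 0.0122), a call lost without Cas9 control replicate 3 (departure -0.70, adjusted p = 0.137).

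**Figure D4:**
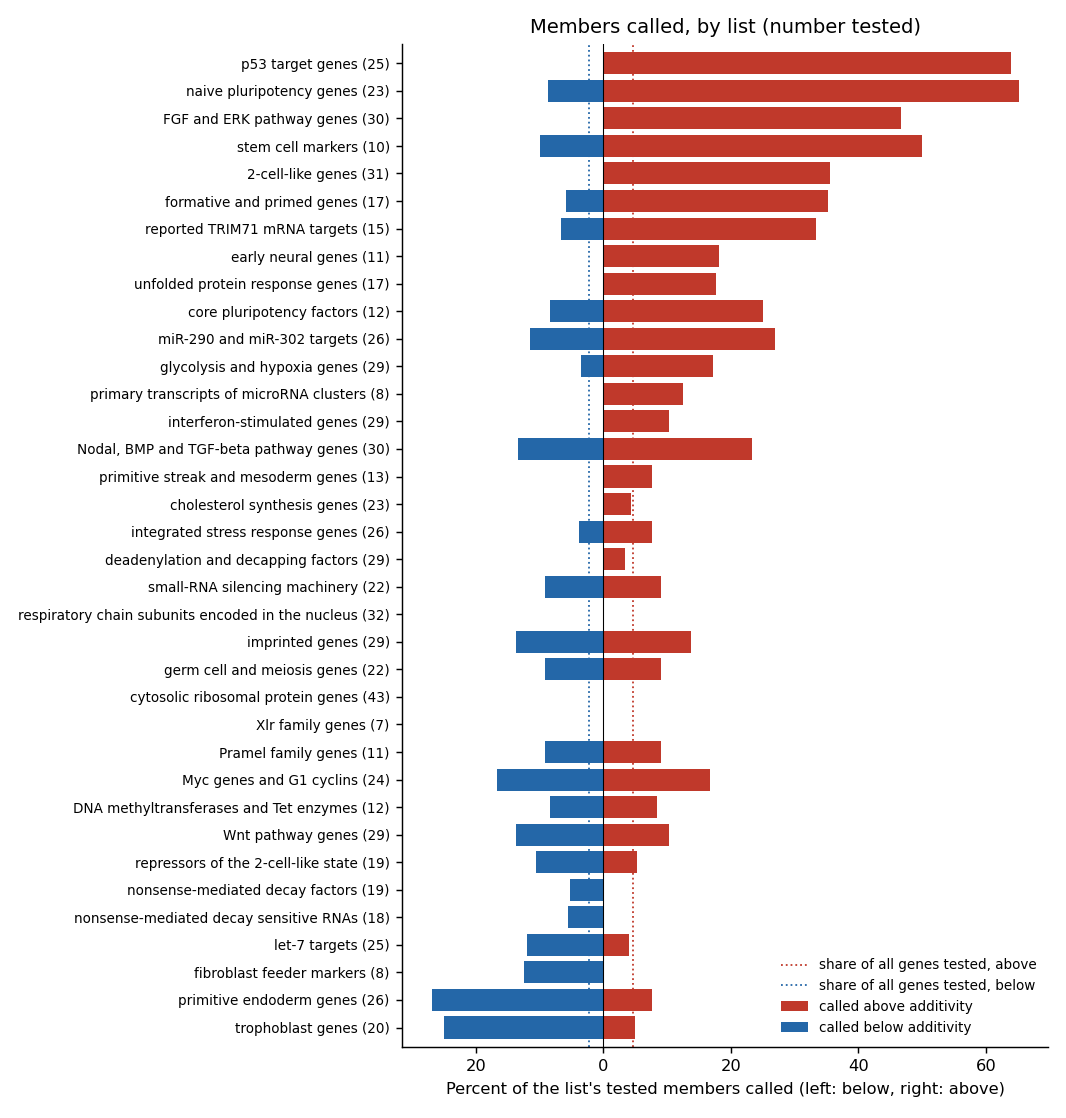
Percent of tested members called above (red, to the right) or below (blue, to the left) additivity in 36 gene lists, with the number tested in brackets and dotted lines at the shares of all genes tested (4.68% and 2.25%). Naive pluripotency genes, p53 targets, stem cell markers and FGF and ERK genes reach furthest right, primitive endoderm and trophoblast genes furthest left, and ribosomal, respiratory chain and Xlr genes have no bar.

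Further lists had few calls, or calls that depended on single libraries. Of all genes, 4.68% were called higher and 2.25% lower. None of 43 cytosolic ribosomal protein genes and none of 32 respiratory chain subunits was called by edgeR, with medians of 0.02 and -0.04. Of 23 cholesterol synthesis genes 1 was called (Idi1, 0.31), of 19 nonsense-mediated decay factors 1 (Casc3, -0.20), and of 18 RNAs sensitive to that decay 1 (Gadd45b, -0.46). These calls were lost without 2, 3 and 1 of the 12 libraries. The integrated stress response had 2 calls higher and 1 lower of 26, with Atf3 at 0.67 (SE 0.15, adjusted p = 0.00225) and Mthfd2 at -0.28, the latter lost without 4. The unfolded protein response had 3 higher of 17, the chaperone genes Hspa5 (log2 departure 0.25, SE 0.052, adjusted p = 0.000986) and Hsp90b1 (0.25) and, lost without 9 of the 12 libraries, Xbp1 (0.23). Interferon-stimulated genes had 3 higher of 29 (Psmb9, 0.96, Parp14, 0.71, and Ifitm3, 0.32), and 0 or 1 without 5 of the 12 libraries (Cas9 Trim71-/- replicate 1, Tnrc6a control replicates 1 and 3, Tnrc6a Trim71-/- replicates 2 and 3). Glycolysis and hypoxia genes had 5 higher and 1 lower of 29, with 0 higher without Tnrc6a control replicate 1 and 3 or fewer without 8 of the 12 libraries. Vegfa (0.37) and the glucose transporter gene Slc2a1 (0.18) were among the higher, and Ndrg1 (-0.68), the lower one, kept its call without each. Myc genes and G1 cyclins had 4 of each of 24, with 2 lower without Cas9 control replicate 1 or 3. Calls also depended on level: 0.88% of genes under 1 CPM were called, 4.03% of those from 1 to 5 CPM, 8.33% from 5 to 50 and 12% above 50.

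Departures were not even over the genome. Among genes of at least 5 CPM, 92 of 735 on chromosome 1 were called higher and 15 lower, with a median departure of 0.07, and 52 of 346 on chromosome 18 were called higher and 11 lower, with a median of 0.05. The share called higher was 13% on chromosome 1 and 15% on chromosome 18, against 4.74% to 7.22% on the other autosomes and X. Their shares called lower, 2.04% and 3.18%, lay within the 1.03% to 4.92% of the other chromosomes. The medians of the other autosomes and X lay between -0.01 and 0.05. The highest of these was on chromosome 13 (0.045). There 62.1% of departures were positive, the same share as on chromosome 18, but only 5.44% of genes were called higher. In single libraries, the median of chromosome 1 relative to the other autosomes was 0.031, 0.0351 and 0.0479 in Tnrc6a Trim71-/- and -0.0318 to 0.00556 in the other 9, so the 3 libraries stood apart. On chromosome 18 it was lower in the Tnrc6a control libraries (-0.0545 to -0.0457) than in Tnrc6a Trim71-/- (-0.0301 to -0.0105), and 0.0178 to 0.0417 with Cas9. Chromosome 8 differed by genotype in both settings, from -0.262 to -0.224 in control and 0.221 to 0.269 in Trim71-/- libraries, which leaves its median departure at 0.01. The part of these shifts in the calls of single genes was not tested beyond leaving out chromosomes 1 and 18, which gave 1223 calls, 67.0% of them higher. Egr1, Gata6, Pmaip1, Spry4, Smad7, Hbegf, Impact, Dcp2 and Dcc lie on chromosome 18. Inhbb, Lefty1, Lefty2, Fzd5, Lamc1, Msc and Atf3 lie on chromosome 1.

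**Figure D5:**
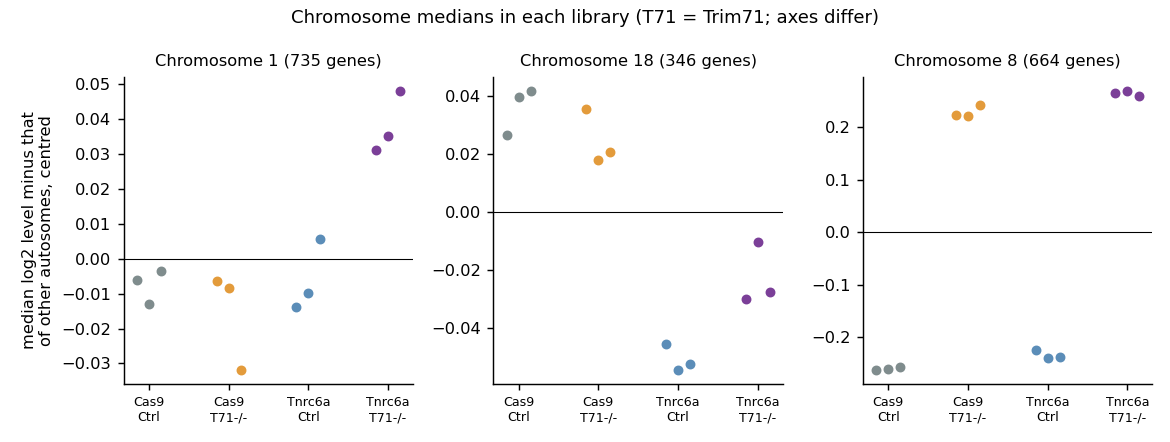
Median log2 level of the genes of a chromosome in each library, centred per gene over the 12 libraries and relative to the other autosomes (y axes, which differ in scale), for the 4 groups. The Tnrc6a Trim71-/- libraries stand above the other 9 on chromosome 1, the Tnrc6a control libraries lie lowest on chromosome 18, and chromosome 8 follows genotype in both settings.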

How the data were processed

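Total RNA was sequenced as stranded TruSeq libraries. Per the submitters' processing notes, bcl2fastq 2.20, STAR 2.7.3a and GRCm38 (mm10) were used. The sources used here do not give the counting tool, its annotation or its strand setting. The authors deposited whole-number counts per gene and library, used here as they are. The RPKM values deposited beside them were not used. No gene in the table had under 46 counts over the 12 libraries. Symbols came from the deposited table for 17158 genes and from GENCODE M21 for 3357, with 14 unnamed.

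Counts were fitted in R 4.3.3 with edgeR 4.0.16 (filterByExpr by group, TMM, robust quasi-likelihood, 1 mean per group). The contrast was the interaction, two-sided, with Benjamini-Hochberg adjustment over 20486 genes. SE is the size of the log2 departure over the root of F. The expected level is the product of the Tnrc6a control and Cas9 Trim71-/- means over the Cas9 control mean. The fit was tested on simulated data. Intervals are exact (Clopper-Pearson, 95%), and floors of 3 counts are per group; both cover counting error only.

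Named genes were label checks and, among called genes of at least 1 CPM with a proper symbol and a sign kept without each library, the 12 largest departures of each sign, 5 of each sign with the smallest p at 50 CPM or more, 4 per class of Trim71 effects and up to 4 per list (36 lists). Other list members were named after their values were seen. Members and lists were chosen with earlier results of these data known. The alternatives, with limma 3.58.1 (voom) and DESeq2 1.42.0 among them, are described with their effects below. Leaving out chromosomes 1 and 18 was added after seeing the data. 2 further genes that the rule chose are not reported here.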

Additional observations from a re-analysis of the deposited data

Results flagged for a closer look

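The effect of Trim71 loss differed between the Tnrc6a and Cas9 settings for 1419 genes by the edgeR test of that difference, and in 124 of them the effects passed their own tests with opposite signs. The values below are log2 differences, Trim71 effect with Tnrc6a minus with Cas9, of the genes among these 124 that the rule for named genes chose. Those that fell with Cas9 and rose with Tnrc6a were Arc (0.93), Jam2 (0.56), Spry4 (0.56), Smad7 (0.47), Impact (0.47), Cdkn1a (0.32), Dcp2 (0.29), Hspa5 (0.25) and Pfkp (0.22). Fgf15 (1.26), named in addition, had the same signs. Those that rose with Cas9 and fell with Tnrc6a were Krt8 (-1.21), Cdkn1c (-0.80) and Id3 (-0.67). The call of Pfkp was lost without 4 of the 12 libraries, and the calls of the other 12 held without each of them.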

How the results depend on the processing

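The 1419 calls (958 higher, 461 lower) became 1381 with relative log expression factors, 1421 with upper-quartile factors, 1397 with factors computed without chromosome 8, 1416 without a filter, 1425 with at least 1 CPM in 6 libraries, 1358 with limma-voom, 1281 with DESeq2 and 1344 without robust estimates. A test for more than 1.5-fold kept 36 (31 higher, 5 lower), as its construction asks for more. With each library left out in turn, calls ranged from 1059 to 1403, higher calls from 543 to 949 and lower calls from 355 to 521. Without Tnrc6a control replicate 1 or 2, or Tnrc6a Trim71-/- replicate 2, higher calls were 548, 543 and 584, and the median departure of all genes was -0.014, -0.016 and -0.017 instead of 0.021; the cause was not tested. Of the 115 named genes with a call, none reversed under any setting, and 93 to 104 kept the call without 1 library. Apart from label checks, naming required a sign kept without each library, so those settings could not have shown a reversal. Replicate numbers did not pair the libraries: over 16740 genes, deviations of same-numbered libraries correlated at -0.127 to 0.0509, over 0.1 in 0 of 18 pairs, against -0.0799 to 0.101 for other pairs. A replicate block gave 1335 calls (878 higher, 457 lower). Depth limits the genes under 1 CPM, of which 0.88% were called.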
